A study of Mus musculus with 27 samples.

Results

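Macrophage genes of polarization and scavenging, 10 of the 18855 targets on the CAF sheet, were examined in the CAF segments of MC38 liver metastases: Mrc1, Cd163, Msr1 and Marco, Trem2, Gpnmb and Apoe, and Arg1, Nos2 and Acod1. They were selected by gene symbol, and all 10 were measured. MC38 is a murine colorectal cancer cell line. MC38 cells that carried nontargeting shRNA (NT shRNA, control) or CMTM6 shRNA (knockdown) were injected into the portal vein of 2-month-old C57BL6 mice, so that the tumor cells and not the host fibroblasts or macrophages carried the shRNA, and the mice were killed 11 days later. Regions of interest (ROIs) were drawn in the metastases, 14 in the control and 13 in the knockdown group, and each group came from 3 mice. The desmin-labeled area of each ROI was collected as its CAF segment with the GeoMx Digital Spatial Profiler, which counts barcoded probes released from a selected area.

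A desmin-labeled segment is a small piece of tissue, not a sorted cell population, and it holds whatever cells lie in or against the labeled area. Of 15 fibroblast and stellate cell markers, 14 were above background (defined below), with only Lrat, a stellate cell enzyme of retinoid storage, below it. Since 11275 of 18855 targets were above background, that count alone does not identify CAFs. Macrophage transcripts were present too, since 19 of 20 pan-macrophage markers were above background, the exception being Ccr2, the receptor of the monocyte chemokine Ccl2. None of the 10 markers of Kupffer cells, the resident macrophages of the liver, was above background. Cmtm6, the targeted gene, was measured in segments selected for host fibroblasts, so it does not check the knockdown in tumor cells: its deposited values were 60.5 to 103 in control ROIs and 47.7 to 98.6 in knockdown ROIs, and relative to the median gene the difference was 0.08 on the log2 scale (limma, adjusted p = 0.810).

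Macrophages change their transcript program with the signals around them. Interferon and bacterial products induce Nos2, which makes nitric oxide from arginine, and Acod1, which makes itaconate from a citric acid cycle intermediate, whereas IL-4 induces Arg1, which splits arginine into ornithine and urea, and Mrc1, the mannose receptor. Scavenger receptors (Cd163 for hemoglobin-haptoglobin, Msr1 and Marco for modified lipoproteins and microbial surfaces) take up debris, and Trem2, Gpnmb and Apoe mark macrophages that handle lipid and are known from many tumors and from damaged liver. Some of these genes also have other sources in liver: hepatocytes make much Arg1 and Apoe, and sinusoidal endothelial cells make Mrc1.

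The deposited values of the groups lay on different scales. The 75th percentile of all targets was 70.3 to 72.6 in control ROIs but 43.9 to 56.4 in knockdown ROIs, and 94% of all targets were called lower in knockdown ROIs on those values. Each value was therefore taken as log2(value + 1) minus the median of all targets in the same ROI, called the centred level here, and every difference below is on that scale unless another is named. Depth, recovered from the steps between values, was 659571 to 3269149 counts per control ROI and 76346 to 2776820 per knockdown ROI. The shallowest library, ROI 26, had 9240 targets at 1 count, where 1 count was worth 14.1 deposited units, and ROI 14 of the controls had the highest median log2 level (5.26). Which mouse each ROI came from is not in the labels, so ROIs of the same mouse were counted as separate samples and all p-values below are too small. In such segments, fewer cells of a type and less RNA per cell cannot be told apart.

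None of the 10 genes was called higher or lower in CMTM6-knockdown segments at an adjusted p of 0.05 (limma, over all targets), against 0.117% of all targets. At an unadjusted p of 0.05, Acod1 was higher and Arg1 was lower (1 gene each of 10), against 3.16% of all targets higher and 6.73% lower. edgeR on the recovered counts also called none of the 10, against 0.679% of all targets. DESeq2 called none either, against 0.995% of the 13371 targets to which it gave an adjusted p, and it gave none to Cd163. At an unadjusted p of 0.05 each of these tools counted the same 2 genes, against 9.57% of all targets with edgeR and 7.92% with DESeq2. The median difference over the 10 genes was 0.04, and over all targets it was -0.05. No target of the 18855 had groups that failed to overlap (0% of targets), the 10 genes included.

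**Figure D1:**
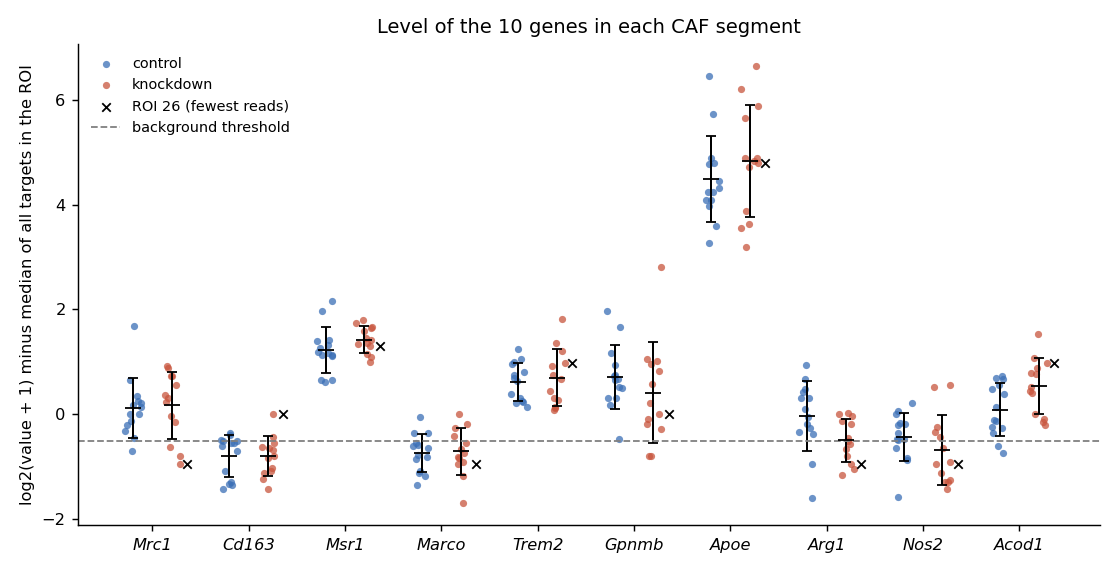
Centred level (log2(value + 1) minus the median of all targets in the ROI) of the 10 genes in each ROI, 14 control (blue) and 13 knockdown (red). Bars are the group mean and SD, the dashed line is the background threshold of -0.512, and the cross beside each knockdown group repeats ROI 26, the library with the fewest counts; Cd163, Marco and Nos2 lie around or under the line, and the groups of every gene overlap.

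Background was set from 989 targets of 5 sensory receptor families (olfactory, vomeronasal and taste receptors), which liver tumors should not express. A target was above background when its mean centred level exceeded their 95th percentile, -0.512, as 11275 of 18855 targets did. Of the 10 genes, 7 were above it, and Cd163, Nos2 and Marco were not, although Nos2 stood at the 94.0th percentile of the background families. Counted ROI by ROI against that ROI's own 95th percentile, Msr1, Trem2 and Apoe passed in 27 of 27 ROIs, Gpnmb and Acod1 in 22, Mrc1 in 21, Arg1 in 15, Nos2 in 7, Marco in 2 and Cd163 in 0. Probes differ in efficiency, so each gene is compared with background and with itself across ROIs, not with the other genes.

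Arg1, the arginase of the urea cycle and of alternatively activated macrophages, had the largest negative difference among the 10 genes, and it did not pass the test. Its deposited value was 9.08 at the lowest, 29.1 at the median and 62.0 at the highest in the 14 control ROIs, and 7.83, 13.3 and 20.6 in the 13 knockdown ROIs. After centring, 12 of 13 knockdown ROIs lay under the control median and 12 of 14 control ROIs lay over the knockdown median, but the lowest ROI of all was a control, ROI 5 (-1.60). The mean centred level was -0.04 ± 0.67 (SD, n = 14) in control and -0.50 ± 0.41 (SD, n = 13) in knockdown segments. The difference was -0.46 ± 0.19 (SE, limma; 95% interval -0.85 to -0.08), with an unadjusted p of 0.0200 and an adjusted p of 0.420. The transcript was near the detection limit in many segments, with a median of 31 counts in control and 15 in knockdown ROIs, and it passed the background of its own ROI in 10 of 14 control and 5 of 13 knockdown ROIs.

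Hepatocyte markers were examined beside it. Of 18 measured, 14 were above background and 4 were called higher in knockdown segments by limma (Fga, Cyp2e1, Apoa1 and Serpina3k), against 0.111% of all targets called higher, and edgeR called 11 higher, against 0.594%. As deposited, 5 were called higher and 5 lower, against 0.0689% and 94% of all targets. Their mean centred level was -0.43 ± 0.40 (SD, n = 14) in control and 0.32 ± 0.68 (SD, n = 13) in knockdown ROIs, with deposited sums of 321 to 919 and 198 to 1276. Arg1 correlated with this level across ROIs in both groups (r = 0.50 in control and 0.37 in knockdown). With the hepatocyte level as a covariate, the Arg1 difference was -0.76 (unadjusted p = 0.00142, adjusted p = 0.112), against -0.46 without it.

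Acod1, the itaconate-producing enzyme of classically activated macrophages, had the largest positive difference among the 10 genes. Deposited values were 16.4, 27.9 and 51.5 (lowest, median, highest) in control and 14.9, 26.7 and 56.4 in knockdown ROIs, so the groups looked alike before centring. After centring, 9 of 13 knockdown ROIs were above the control median and 6 of 13 were above every control ROI, led by ROI 19 at 1.54. The mean was 0.08 ± 0.50 (SD, n = 14) in control and 0.53 ± 0.54 (SD, n = 13) in knockdown ROIs, a difference of 0.45 ± 0.18 (SE, limma; 95% interval 0.09 to 0.81) with an unadjusted p of 0.0161 and an adjusted p of 0.400, which did not pass the test. ROI 26 was among those 6 with 4 counts of Acod1. Without ROIs 14 and 26, the libraries that stood apart, the unadjusted p was 0.0505 for Acod1 (difference 0.36) and 0.0560 for Arg1 (-0.38).

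Nos2, the enzyme that competes with arginase for arginine, was below the background threshold. Its deposited values were 9.33, 21.8 and 37.3 in control and 5.71, 11.4 and 28.9 in knockdown ROIs (lowest, median, highest), with a difference of -0.25 (95% interval -0.65 to 0.14). After centring, knockdown ROIs 19 and 25 were above every control ROI, while 9 of 13 knockdown ROIs were below the control median. Of 11 other genes of arginine and itaconate handling, limma and edgeR called 0, against 0.117% and 0.679% of all targets. At an unadjusted p of 0.05 they counted 0 and 1, against 9.89% and 9.57%. The median difference of the 11 genes was -0.03. Slc7a1, an arginine transporter, was at -0.26 (adjusted p = 0.618), and Ass1, which rebuilds arginine from citrulline, was at 0.25 (adjusted p = 0.625).

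The genes of lipid-handling macrophages did not differ in one direction. Trem2, a lipid-sensing receptor, ranged over 32.0, 47.5 and 68.1 in control and 20.4, 32.1 and 67.1 in knockdown ROIs (lowest, median and highest deposited value), with a difference of 0.08 (95% interval -0.24 to 0.40). Gpnmb, a lysosome-associated glycoprotein, ranged over 26.4, 44.8 and 121 in control and 9.69, 27.0 and 133 in knockdown ROIs. Its centred level had the wider spread in knockdown ROIs, 0.41 ± 0.97 (SD, n = 13) against 0.70 ± 0.61 (SD, n = 14). Of the control ROIs, 12 of 14 exceeded the knockdown median, while ROI 28 of the knockdown group was higher than all others (2.81). The difference was -0.30 (95% interval -0.82 to 0.22, adjusted p = 0.722), and on recovered counts it was 0.02 with edgeR. Without ROI 28 the difference was -0.50 (limma, unadjusted p = 0.0261). Of the 27 fits that left out 1 ROI each, this was the only 1 with an unadjusted p under 0.05 for Gpnmb. With the hepatocyte level as a covariate it was -0.73 (unadjusted p = 0.0181, adjusted p = 0.249), and with the pan-macrophage level as a covariate it was -0.69 (unadjusted p = 0.00905, adjusted p = 0.286).

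Apoe, the lipoprotein that macrophages and hepatocytes secrete, was above every target of the background families. Its deposited values were 371, 590 and 2579 in control and 191, 593 and 1945 in knockdown ROIs (lowest, median, highest), with ROI 13 and ROI 28 highest in their groups. The centred difference was 0.34 (95% interval -0.26 to 0.94, adjusted p = 0.727). Of 9 other apolipoproteins measured, limma called 1 higher, against 0.111% of all targets: Apoa1 of high-density lipoprotein (1.49, adjusted p = 0.0409), which is also one of the hepatocyte markers above. edgeR called 5 of the 9 higher, against 0.594%. As deposited 1 was called higher and 3 lower, against 0.0689% and 94% of all targets. Of those 9, 5 were higher at an unadjusted p of 0.05 and 0 were lower (limma, against 3.16% and 6.73% of all targets), with a list median of 0.57 against -0.05 for all targets. With the hepatocyte level as a covariate the Apoe difference was -0.10, and with the pan-macrophage level as a covariate it was -0.24. These fits used 1 slope for both groups, although r of Apoe with the hepatocyte level was -0.22 in control and 0.61 in knockdown ROIs. Whether hepatocyte content accounts for the Apoe difference was not tested.

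Mrc1, the mannose receptor, and the scavenger receptor Msr1 showed no difference beyond their spread. Mrc1 deposited values were 18.0, 30.6 and 92.8 in control and 11.1, 23.3 and 38.4 in knockdown ROIs, with ROI 13 of the controls above all others, and the centred difference was 0.05 (95% interval -0.36 to 0.46). Msr1 had deposited values of 44.5, 69.6 and 128 in control and 38.1, 53.2 and 70.4 in knockdown ROIs, and among the knockdown ROIs its centred SD of 0.25 (n = 13) was the lowest of the 10 genes. Its difference was 0.20 (95% interval -0.07 to 0.47, adjusted p = 0.640), and 10 of 13 knockdown ROIs were above the control median. Marco (0.03, 95% interval -0.28 to 0.34) and Cd163 (-0.005, 95% interval -0.31 to 0.30) were at background in both groups. What size of difference could be detected at that level was not tested. Of 17 other scavenger receptors, limma and edgeR called 0, against 0.117% and 0.679% of all targets. With limma, Cxcl16, which binds oxidized lipoprotein, was the 1 with an unadjusted p under 0.05 (0.34, adjusted p = 0.442), against 9.89% of all targets.

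**Figure D2:**
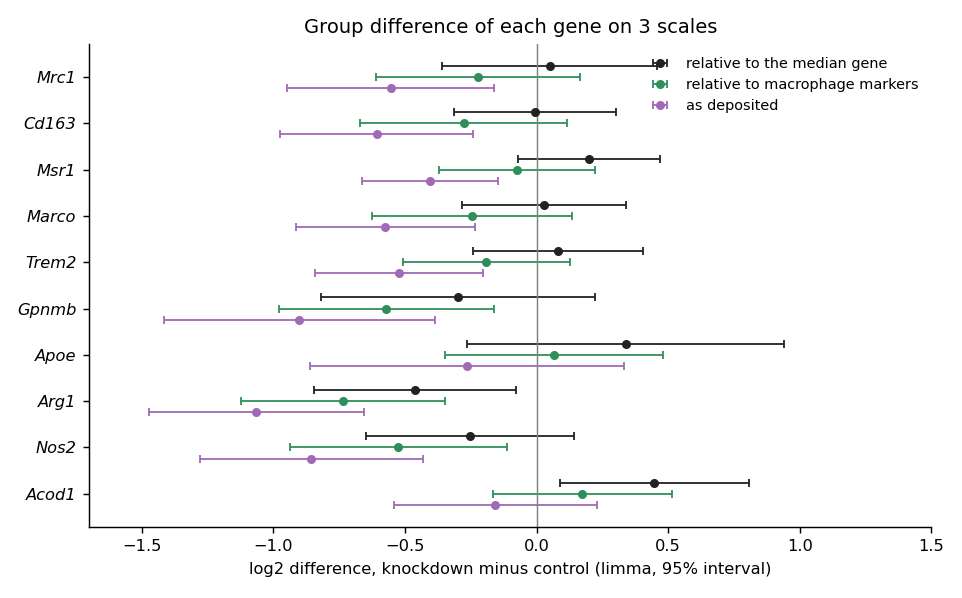
Difference between knockdown and control ROIs for the 10 genes on the log2 scale, with 95% limma intervals, relative to the median gene (black), relative to the mean of 20 pan-macrophage markers (green) and as deposited (purple). As deposited all 10 points are below 0; relative to the median gene they spread from -0.46 (Arg1) to 0.45 (Acod1), and relative to macrophage markers from -0.73 (Arg1) to 0.17 (Acod1).

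The reference scale decided the direction of several genes. As deposited, 8 of 10 genes were called lower (all but Apoe and Acod1), against a background of 94% of all targets, so the count is close to that of any 10 targets. Relative to the mean of the 20 pan-macrophage markers, which asks about each gene per unit of macrophage transcript, Arg1 was lower by -0.73 on the log2 scale (adjusted p = 0.0140) and Gpnmb by -0.57 (adjusted p = 0.0374), 2 of 10 genes against 24.4% of all targets lower. Nos2 was at -0.53 (adjusted p = 0.0521) on that scale, and Mrc1 (-0.22), Msr1 (-0.07), Trem2 (-0.19) and Marco (-0.24) turned from above 0 to below it without passing the test.

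The level of that reference was compared as well. The mean centred level of the 20 markers was 1.98 ± 0.34 (SD, n = 14) in control and 2.25 ± 0.23 (SD, n = 13) in knockdown ROIs, with deposited sums of 2506 to 6166 and 2343 to 5179. None was called by limma, 10 of 20 were higher at an unadjusted p of 0.05, against 3.16% of all targets, and edgeR called 4 higher, against 0.594%: Aif1, a calcium-binding protein of macrophages (0.56, adjusted p = 0.0199), Tyrobp, the adaptor that signals for Trem2 (0.57, adjusted p = 0.0109), Laptm5, a lysosomal membrane protein (0.53, adjusted p = 0.00750), and Lyz2, a lysozyme (0.71, adjusted p = 0.000309). The list median was 0.26 relative to the median gene. As deposited, 0 of the 20 were called higher and 11 lower, against 94% of all targets lower. The list median on that scale was -0.34, against -0.66 over all targets.

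Broader polarization lists placed the 10 genes in context. At an unadjusted p of 0.05, limma counted 3.16% of all targets higher and 6.73% lower. Among 21 other genes of classical activation, 5 were higher and 0 lower at that p, with a median of 0.18; Cxcl9, an interferon-induced chemokine for T cells, was at 1.18 (limma adjusted p = 0.0618; edgeR adjusted p = 0.00855), and Gbp5 and Gbp2, interferon-induced GTPases, were at 0.62 and 0.66 (limma adjusted p = 0.241 and 0.348). Among 19 genes of alternative activation, 6 were higher and 0 lower at that p, with a median of 0.11. Ccl8, a chemokine, was at 0.74 (adjusted p = 0.301) and Clec10a, a lectin, at 0.33 (adjusted p = 0.460). Retnla, a secreted protein induced by IL-4, was at 0.72 (adjusted p = 0.203) and Mgl2, another lectin, at 0.50 (adjusted p = 0.389), but both were below the background threshold. Among 22 lipid-associated macrophage genes, 2 were higher and 3 lower, with a median of -0.02: Spp1, the matrix protein osteopontin, was at -0.56 (adjusted p = 0.0970), Hmox1, which degrades heme, at -0.57 (adjusted p = 0.241), Ctsl, a lysosomal protease, at -0.35 (adjusted p = 0.249) and Clec7a, a receptor of fungal glucans, at 0.52 (adjusted p = 0.201). The lists were chosen with earlier results of these data known, and none of the genes of these 3 lists was called by limma.

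Across ROIs within a group, the 10 genes did not vary as a block. Over the 45 pairs, Pearson r of the centred levels ran from -0.49 to 0.75 in the 14 control ROIs (27 of 45 above 0, median 0.10) and from -0.63 to 0.85 in the 13 knockdown ROIs (22 of 45 above 0, median -0.003). These coefficients are descriptions: ROIs share mice, and both values of a pair share a library, its depth and its cell content. Only 2 of 45 pairs exceeded 0.5 in both groups, and both involved Apoe. Of the 21 pairs among genes above background, 12 had the same sign in both groups.

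Trem2, Gpnmb and Apoe held those pairs. Trem2 and Apoe gave r = 0.75 in control and 0.79 in knockdown ROIs, and 0.68 and 0.63 without the 2 ROIs farthest from the Trem2 median. Gpnmb and Apoe gave 0.61 and 0.85, and 0.71 and 0.78 without the 2 ROIs farthest from the Gpnmb median. Trem2 and Gpnmb gave 0.17 in control and 0.72 in knockdown ROIs. In the latter r was 0.48 without the 2 ROIs farthest from the Trem2 median, and whether the groups differ in r was not tested. ROI 28, where Trem2 was at 1.82, Gpnmb at 2.81 and Apoe at 6.66, was the highest knockdown ROI for all 3 genes. That was not particular to them. ROI 28 was also the highest knockdown ROI for the mean pan-macrophage (2.81), lipid-associated macrophage (3.07) and fibroblast (3.95) levels.

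The bases upstream of these 3 genes are shown because Trem2 and Gpnmb each varied with Apoe in both groups. They are RefSeq sequence (GRCm38.p6) of the 250 bases before the gene start in RefSeq, which for Gpnmb lies before the GENCODE start given below, 5' to 3' on the gene's strand, with capitals marking GAGGAA (a core of sites of the myeloid factor PU.1, searched on both strands, so also TTCCTC) and TGANTCA (an AP-1-like motif, the same on both strands), and with CACGTG, the E-box bound by the lysosomal regulators of the MiT family, also searched. Positions count back from the first base of the gene: Trem2 chr17:48346151-48346400 (+ strand), Gpnmb chr6:49036268-49036517 (+ strand), Apoe chr7:19699189-19699438 (- strand).
Trem2: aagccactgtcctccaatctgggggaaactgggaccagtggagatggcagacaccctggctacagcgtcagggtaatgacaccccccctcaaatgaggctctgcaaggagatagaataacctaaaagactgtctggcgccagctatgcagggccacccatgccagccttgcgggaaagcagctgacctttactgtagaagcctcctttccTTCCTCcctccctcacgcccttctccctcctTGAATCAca
Gpnmb: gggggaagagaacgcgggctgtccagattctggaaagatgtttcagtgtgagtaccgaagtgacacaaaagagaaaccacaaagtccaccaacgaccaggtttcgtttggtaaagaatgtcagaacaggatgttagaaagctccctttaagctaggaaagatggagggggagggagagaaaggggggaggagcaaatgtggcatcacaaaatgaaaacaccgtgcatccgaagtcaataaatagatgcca
Apoe: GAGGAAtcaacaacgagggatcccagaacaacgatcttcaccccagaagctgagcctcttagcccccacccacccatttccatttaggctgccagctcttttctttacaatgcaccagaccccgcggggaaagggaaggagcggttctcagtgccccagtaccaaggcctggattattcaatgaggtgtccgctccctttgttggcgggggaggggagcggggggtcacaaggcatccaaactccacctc
GAGGAA was found once in Trem2, starting 40 bases before the gene, and once in Apoe, starting 250 bases before it, and 23.3% of 32851 promoters hold it in this window. TGANTCA was found once in Trem2 and is held by 6.75% of promoters, and CACGTG was found in 0 of the 3 and is held by 6.02%. No one of the 3 motifs was present in all 3 windows, and the windows say nothing of other sites. RefSeq promoters were matched for 7 of the 10 genes.

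The 10 genes lie on 9 chromosomes of the mouse genome (GENCODE M21 on GRCm38), with Gpnmb (chr6:49036546-49070929) and Cd163 (chr6:124304656-124330527) on the same one but far apart. Trem2 is at chr17:48346401-48354147, Apoe at chr7:19696109-19699188, Arg1 at chr10:24915221-24927484 and Acod1 at chr14:103046977-103056573, so Trem2, Gpnmb and Apoe are separate loci. The files name one value per gene and no probe position, so which exon each probe binds was not analysed here.

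**Figure D3:**
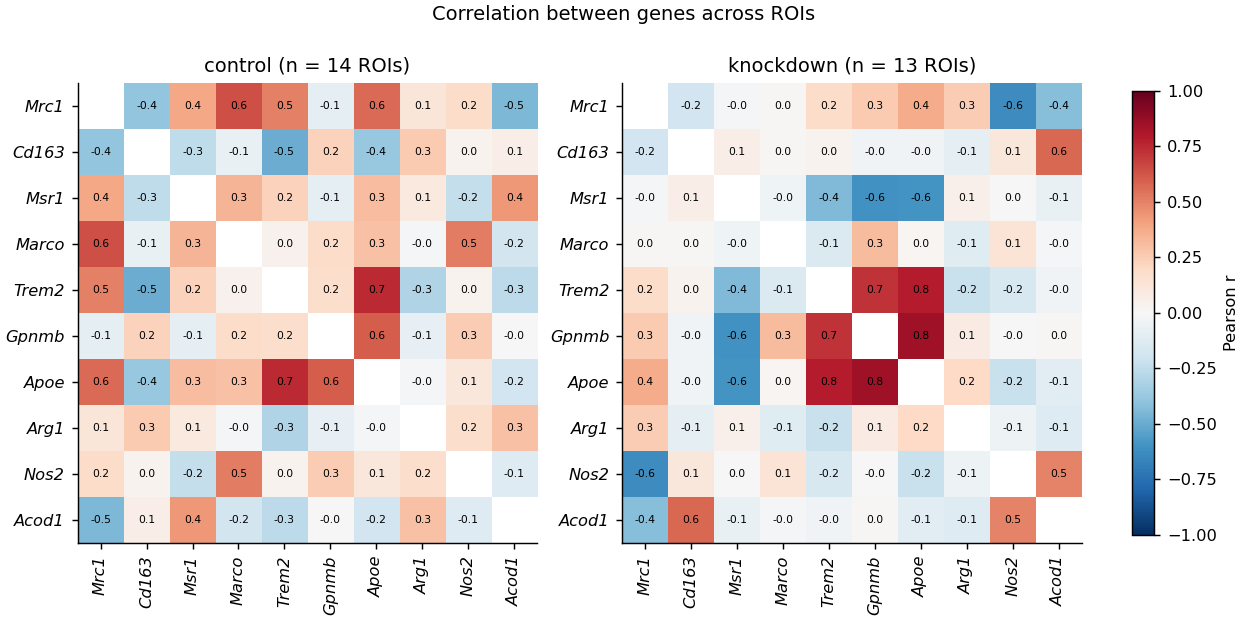
Pearson r between centred levels of the 10 genes across ROIs, in 14 control ROIs (left) and 13 knockdown ROIs (right), from blue (-1) through white to red (1), with r printed to 1 decimal. The red block of Trem2, Gpnmb and Apoe is complete only in the right panel, where Msr1 is blue against all 3.

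Msr1 had negative r with these genes in knockdown ROIs. Its r with Apoe was 0.31 in control and -0.60 in knockdown ROIs, but -0.0003 and -0.57 without the 2 ROIs farthest from the Msr1 median. With Gpnmb it was -0.09 and -0.61, and -0.34 and -0.59 without the 2 farthest. For r with the pan-macrophage level, the 2 ROIs farthest from the median of that level in each group were left out instead. Msr1 gave 0.73 in control ROIs (0.55 without those 2). In knockdown ROIs it gave -0.43 (0.06 without those 2), so the negative value rested on those 2 ROIs. Apoe followed the pan-macrophage level in both groups (0.59 and 0.80), but in control ROIs r was 0.05 without the 2 farthest. Gpnmb gave 0.29 and 0.84, and -0.22 and 0.58 without the 2 farthest. Trem2 gave 0.43 and 0.70, and 0.08 and 0.53 without the 2 farthest, so for all 3 genes the control values rested on those ROIs.

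Acod1 varied with the classical activation genes: ROI 8 in the control group and ROI 19 in the knockdown group were highest for both. With the mean of the 21 listed genes, r was 0.86 in control and 0.80 in knockdown ROIs. It was 0.78 and 0.71 without the 2 ROIs farthest from the median of that mean. This was not particular to that list. With the alternative activation genes r was 0.51 and 0.71. Without the 2 ROIs farthest from the median of their mean it was 0.17 and 0.72, so the control value rested on those 2 ROIs. With neutrophil markers r was 0.43 and 0.64, and 0.45 and 0.49 without the 2 ROIs farthest from the median of their mean. With Nos2 it was -0.13 in control and 0.50 in knockdown ROIs, and with Arg1 0.30 and -0.13, so the 3 enzymes did not share a pattern in both groups. With Mrc1 it was below 0 in both groups (-0.45 and -0.43). In the control ROIs, Acod1 also followed the hepatocyte level (0.64), which it did not in knockdown ROIs (0.03), and with that level as a covariate the group difference of Acod1 was 0.27 (unadjusted p = 0.218). Acod1 gave r = 0.61 in control and 0.30 in knockdown ROIs with the pan-macrophage level, and with that level as a covariate the difference was 0.22 (unadjusted p = 0.240).

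Mrc1 was compared with the levels of several cell types. Its r with the endothelial marker level was 0.74 in control and 0.37 in knockdown ROIs, and with the fibroblast marker level 0.75 and 0.45, and 0.21 and 0.23 with the pan-macrophage level. With the hepatocyte level it was -0.37 and 0.47, and -0.17 and 0.29 without the 2 ROIs farthest from the median of that level. With the log2 count total of the ROI it was -0.37 and 0.53. Without the 2 ROIs farthest from the median count total it was -0.42 and -0.29, so the positive knockdown value rested on those 2 ROIs. These coefficients were not tested against each other. ROI 13, the control ROI with the highest Mrc1, was also highest among controls for the endothelial, fibroblast and pan-macrophage levels. Without the 2 ROIs farthest from the median of the level compared, the control fibroblast value was 0.35 and the control endothelial value 0.59. Mrc1 and Marco gave 0.65 in control and 0.01 in knockdown ROIs, although Marco was at background.

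**Figure D4:**
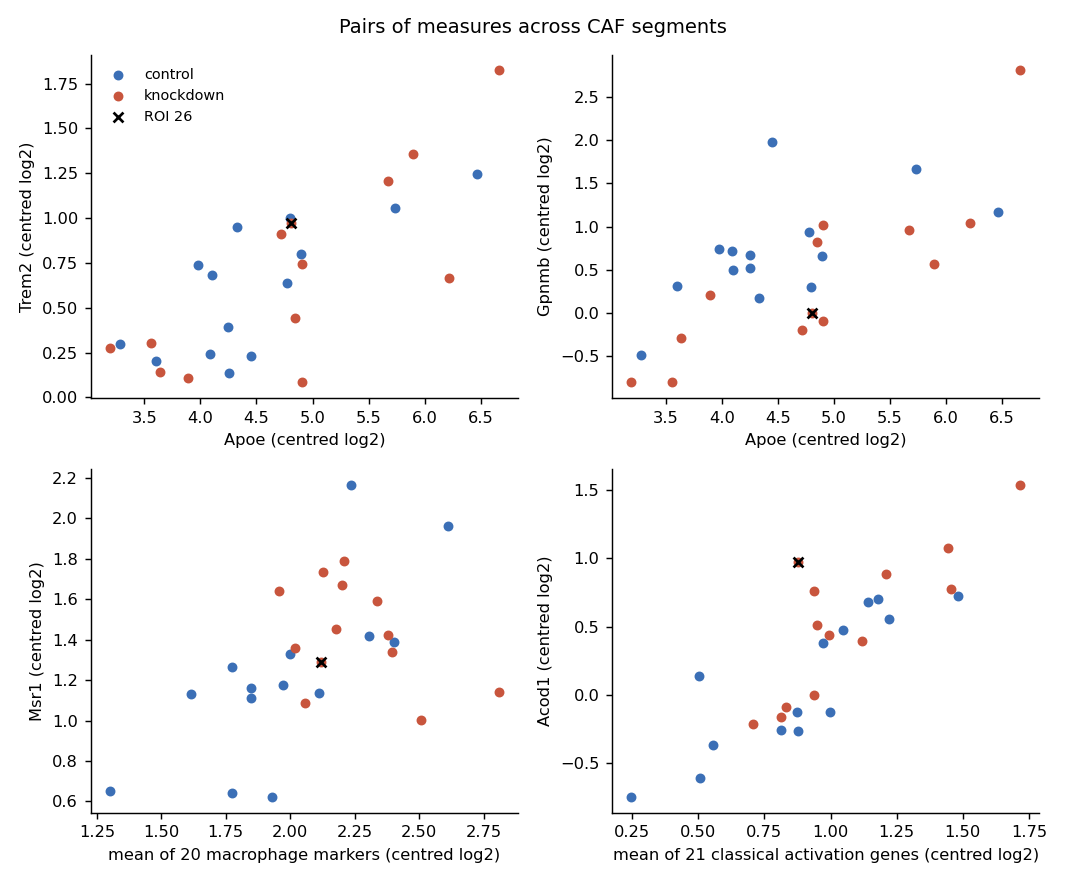
Centred levels across 14 control (blue) and 13 knockdown (red) ROIs, each point 1 ROI and the cross marking ROI 26. Trem2 and Gpnmb rise with Apoe (upper panels), Msr1 rises with the mean of 20 macrophage markers in control ROIs but not in knockdown ROIs (lower left), and Acod1 rises with the mean of 21 classical activation genes (lower right).

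The targets whose levels were most like each gene's were read across all 27 ROIs after removal of each group's mean, among 11275 targets above background. Each r is the highest found among many targets and was not tested, and some differed between the groups. For Trem2 they were Ctsd, a lysosomal protease (r = 0.84), Adgre1, which encodes the macrophage marker F4/80 (0.82), and Cx3cr1, the fractalkine receptor (0.81). For Apoe they were Selenop, a selenium carrier (0.85), Ctsd (0.84) and Pltp, a phospholipid transfer protein (0.84), and for Gpnmb they were Apoe (0.76), Abca1, a cholesterol exporter (0.73), and Ctsd (0.72). Ctsd was thus among the 3 nearest targets of all 3 genes. For Gpnmb, r in control and knockdown ROIs was 0.37 and 0.85 with Abca1, and 0.57 and 0.83 with Ctsd.

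For Acod1 the nearest were Sppl2a, an intramembrane protease (0.83), Ifi47, an interferon-induced GTPase (0.81), and Slfn4 (0.81). For Mrc1 they were Fcgrt, the neonatal Fc receptor (0.80), Lbh (0.78) and Gas6, a ligand of the Mertk receptor (0.78). For Msr1 they were Ccn5, a matricellular protein (0.75), the monocyte chemokine Ccl2 (0.72) and the protease Ctsc (0.72). In control and knockdown ROIs r with Msr1 was 0.83 and 0.60 for Ccn5, 0.83 and 0.40 for Ccl2, and 0.84 and 0.39 for Ctsc. Arg1 had weaker neighbors, Zfp61 (0.67), Ecrg4 (0.65) and the transcription factor Gata3 (0.64). In control and knockdown ROIs r with Arg1 was 0.91 and 0.51 for Zfp61, 0.85 and 0.19 for Ecrg4, and 0.75 and 0.35 for Gata3. None of these nearest targets was called between the groups by limma.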

How the data were processed

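Sections were profiled on the GeoMx Mouse Whole Transcriptome Atlas, and the authors processed the sequencing with the GeoMx DSP Analysis Suite (version and normalization: not given in the sources used here). Deposited signal values are positive, were on different scales in the 2 groups, and in all 27 columns were whole multiples of 1 step for 99.98% of values (within 0.001), which gave the recovered counts. For 14 columns a step test on the lowest value also gave whole reads; in the other 13 the lowest value was more than 1 count.

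Values were centred as log2(value + 1) minus the ROI median and fitted with limma 3.58.1 (trend, two-sided, Benjamini-Hochberg over all targets). Count models (edgeR 4.0.16, DESeq2 1.42.0) on recovered counts, other centrings, pseudocounts, covariates and leaving out ROIs were alternatives. The limma fit on centred values, edgeR and DESeq2 were tested on simulated data. The t test, array weights, covariate fits and other scales were not. The labels name no batch beyond the ROI, and no pair of columns was identical. The text names all 10 genes, up to 4 genes per list with the lowest unadjusted p, and the 3 targets with the highest r to each gene above background; Lrat, Ccr2, Krt8 and Cdh1 were named after their values were seen, for their place against background. The genes and lists were chosen with earlier results of these data known. Mmp12, Apob and other listed genes that were not matched on the sheet were not analysed here. Intervals cover the spread between ROIs, not between mice.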

Additional observations from a re-analysis of the deposited data

How the results depend on the processing

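No paired analysis was possible because control and knockdown ROIs share no replicate numbers. Over all targets (21 higher, 1 lower), counts were 13 and 17722 as deposited, 45 and 6 when centred on targets above background, 33 and 25 with a pseudocount of 5, 3 and 0 with a t test per target in place of limma, 87 and 51 with array weights, 112 and 16 with edgeR, 114 and 19 with DESeq2, and 7 and 35 with the hepatocyte covariate. Lower calls were 2 with 75th percentile centring, 4608 relative to macrophage markers and 3 when only targets above background were tested. The macrophage covariate (0 and 0 called; 475 and 1759 at an unadjusted p of 0.05) and the fit without ROIs 14 and 26 (47 and 25) were chosen after seeing the data. Leaving out 1 ROI gave 12 to 49 higher and 0 to 13 lower. The cause of these moves was not tested.

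Of the 10 genes, 8 were called lower as deposited and 2 relative to macrophage markers, and 0 under the other alternatives, leaving out 1 ROI included. Signs turned as deposited for Mrc1 (-0.55), Msr1 (-0.41), Trem2 (-0.52), Apoe (-0.26), Marco (-0.57) and Acod1 (-0.16), and relative to macrophage markers for Mrc1 (-0.22), Msr1 (-0.074), Trem2 (-0.19) and Marco (-0.24). Cd163 turned to 0.038 with 75th percentile centring, 0.048 on targets above background, 0.049 with a pseudocount of 5 and 0.051 with the macrophage covariate. Gpnmb turned to 0.020 with edgeR and 0.018 with DESeq2. The hepatocyte covariate turned Mrc1 (-0.086) and Apoe (-0.10), and the macrophage covariate turned Mrc1 (-0.071), Trem2 (-0.14), Apoe (-0.24) and Marco (-0.0026).

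Leaving out each ROI in turn, Arg1 stayed between -0.58 and -0.39 and Acod1 between 0.36 and 0.51, each under an unadjusted p of 0.05 in 27 of 27 fits. The ranges were -0.014 to 0.17 for Mrc1, -0.072 to 0.047 for Cd163, 0.15 to 0.27 for Msr1, -0.013 to 0.13 for Trem2, -0.50 to -0.20 for Gpnmb, 0.19 to 0.49 for Apoe, -0.36 to -0.19 for Nos2 and -0.031 to 0.11 for Marco. Leaving out the shallowest ROI is the same fit as without ROI 26. The low counts of Arg1, Nos2, Marco and Cd163 limit what these segments can show.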

Other observations

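T and NK cell genes, which the report does not describe, had a positive median difference in CMTM6-knockdown CAF segments. Of 14 markers, 1 was called higher by limma, against 0.111% of all targets: Nkg7, a granule protein of cytotoxic cells (0.71, adjusted p = 0.00411). At an unadjusted p of 0.05, limma counted 5 higher, against 3.16% of all targets, with a list median of 0.26 against -0.05 over all targets. Trac, the T cell receptor alpha constant region, was at 0.63 (adjusted p = 0.0682). edgeR called 2 of the 14 higher, against 0.594%, and counted 11 higher at an unadjusted p of 0.05, against 5.61%. The mean level of the list was -0.30 ± 0.29 (SD, n = 14) in control and 0.003 ± 0.31 (SD, n = 13) in knockdown ROIs. Of 16 endothelial markers, with a median of -0.02, limma called 0, against 0.117% of all targets. It counted 1 at an unadjusted p of 0.05, against 9.89%. edgeR called 1 higher, against 0.594%: Dnase1l3, a secreted nuclease (0.85, adjusted p = 0.0291). Of 10 tumor epithelial markers, 2 (Krt8 and Cdh1) were above background. For these 10, limma and edgeR called 0, against 0.117% and 0.679% of all targets. At an unadjusted p of 0.05 they counted 0 and 1, against 9.89% and 9.57%.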
